A study of Rattus norvegicus with 49 samples.

Results

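Potassium channel subunit genes were taken as every gene whose platform symbol starts with Kcn, with 1 probe set per gene, the one of highest mean log2 signal. There were 73 such genes, measured by 108 probe sets, among 10411 genes on the array. Of the 73, 45 reached a signal of at least 100 on 5 or more arrays and were tested for age, among 8093 genes tested in all. The other 28 stayed under this limit: 19 never reached a signal of 100, and 9 reached it on 1 to 4 arrays.

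Each of 49 rats of the inbred Fisher 344 strain gave RNA from CA1 of its left hippocampus, and each had an array of its own. The ages were 3, 6, 9 and 12 months with 9 rats each, and 23 months with 13 rats. No genetic change or drug is named for any group, the sex is not given in the labels, and rats of every age had been trained in a water maze, so no group was naive. The question was which genes of CA1 differ with age. Dissected tissue holds neurons, glia and vessels together, so fewer cells of a type and less RNA per cell cannot be told apart in any value given here.

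Potassium channels set the resting potential of a neuron, shape its action potential and limit its firing. Voltage-gated (Kv) channels are tetramers of alpha subunits, to which cytoplasmic partners attach: the Kv beta subunits to Kv1 channels and the calcium-binding KChIP proteins to Kv4 channels. In the dendrites of CA1 pyramidal cells, Kv4 channels with their KChIP partners carry the A-type current that damps incoming signals. Calcium-activated channels (BK and SK) and the M-current channels (Kv7) contribute to the hyperpolarisation that follows firing, and this after-hyperpolarisation is known to be larger in CA1 neurons of aged rodents. Inward rectifiers hold the resting potential and, in astrocytes, take up potassium that neurons release, while tandem-pore (K2P) channels carry leak current.

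By the brightest probe set of each gene, few of these genes were called as different with age, and those called were subunits of different kinds. Kcnj16, an inward rectifier subunit, was higher in old rats, and Kcnip4 (a KChIP), Kcnab1 (a Kv beta subunit) and Kcnv1 (an electrically silent Kv subunit) were lower. The promoters of these 4 genes were looked for in the RefSeq table of the rat build GRCr8, because the 4 genes carry the age differences described here, and 2 matched, Kcnab1 and Kcnj16. Both windows run from 250 bases before to 50 bases after the start of the gene, 5′ to 3′ on the plus strand. Kcnab1 lies at chr2:151614301-151614600 and Kcnj16 at chr10:96517074-96517373. Capitals mark the CCAAT box and TGACG, the core of the cAMP response element, searched on both strands.
Kcnab1: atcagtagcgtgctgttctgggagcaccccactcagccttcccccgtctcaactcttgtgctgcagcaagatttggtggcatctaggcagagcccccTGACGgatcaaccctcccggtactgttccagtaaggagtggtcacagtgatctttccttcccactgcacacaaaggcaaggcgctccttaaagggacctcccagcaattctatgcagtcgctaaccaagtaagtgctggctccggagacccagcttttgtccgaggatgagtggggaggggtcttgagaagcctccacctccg
Kcnj16: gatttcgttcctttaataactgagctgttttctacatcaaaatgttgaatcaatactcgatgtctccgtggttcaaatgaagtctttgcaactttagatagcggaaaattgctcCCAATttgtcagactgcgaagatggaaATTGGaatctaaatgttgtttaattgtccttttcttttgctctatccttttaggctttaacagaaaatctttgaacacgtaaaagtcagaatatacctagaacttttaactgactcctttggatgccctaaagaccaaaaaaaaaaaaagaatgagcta
The Kcnab1 window held 1 response element core, starting 153 bases before the gene's start (position -153), and no CCAAT box. The Kcnj16 window held 2 CCAAT boxes, at positions -136 and -109, the latter on the minus strand and so printed as its reverse complement, and no response element core. No matches overlapped. Of 33469 promoter windows of the same length, 21.2% held the response element core and 37.5% a CCAAT box. Neither window held the TATA box TATAAA, found in 14.2% of all windows, nor the GC box, found in 33.1% (its letters are GGGCGG). The windows differed in base composition, with a GC content of 56.7% for Kcnab1 and 34% for Kcnj16, beside a median of 51.7% over all windows. A match to such short letters is a description only.

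On every array the median signal lay between 208.0 and 224.9, and between 10186 and 10924 probe sets reached 100. Markers of CA1 pyramidal cells were present (8 of 8 measured were tested), and 5 of 6 measured markers of dentate granule cells also passed the signal limit, among them Calb1, which CA1 cells express too. Transthyretin (Ttr), a choroid plexus gene, stood apart on 5 arrays, at 3 months in replicate 7 (3908), replicate 6 (5108), replicate 4 (8932) and replicate 8 (12003) and at 23 months in replicate 11 (16310), against at most 1123 on the others. Since 4 of the 9 youngest rats are among them, the calls against 3 months are given with and without these 5 arrays. No Kcn gene but Kcnj16 was called between 23 and 3 months without them. That fit keeps only 5 rats of 3 months, so a lost call cannot be told apart from the smaller number of rats. The log2 difference was -0.281 with and -0.261 without the 5 arrays for Kcnip4, and -0.221 and -0.259 for Kcnab1. Kcnj13, the Kcn gene best known from choroid plexus, had a signal of 39.5 to 67.1 on the 4 youngest arrays of high Ttr and 51.5 to 102 on the other 5, and at 23 months 66 on the array of high Ttr and 40.2 to 92.5 on the other 12. Kcne2, also known from choroid plexus and under the signal limit, was at 159.9 on the array of 23 months with high Ttr and at 10.7 to 97.5 on the other 12, and at 3 months at 59.1 to 93.9 on the 4 arrays of high Ttr and 44.1 to 80.1 on the other 5.

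Over the 5 ages, 3 of the 45 genes passed the moderated F-test of limma at an adjusted p under 0.05, beside 152 of all 8093 genes (1.88%). These were Kcnip4, Kcnj16 and Kcnab1. Between 23 and 3 months, 3 of 45 passed, beside 264 of all genes (3.26%). Of these, 1 was higher (2.41% of all genes were) and 2 were lower (0.853% of all). With counts as small as these, the members' shares are given beside the background and are not set apart from it. At an unadjusted p under 0.05 there were 7 of 45, beside 14.4% of all genes. A line through age in months, which uses all 49 rats, called 4 of 45, beside 5.12% of all genes. Kcnj16 was the 1 gene that rose (3.47% of all genes rose), and Kcnip4, Kcnab1 and Kcnv1 were the 3 that fell (1.64% of all fell), and at an unadjusted p under 0.05 there were 10 of 45 by slope, beside 17.2% of all.

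No Kcn gene was called between 12 and 3 months (0.222% of all genes were), 9 and 3 months (0.0371%), 6 and 3 months (0.0124%) or 23 and 12 months (0.358%) by limma. At an unadjusted p under 0.05 the counts of Kcn genes were 2, 2, 2 and 5, with 7.92%, 3.09%, 2.85% and 8.22% of all genes at that level. Across the 45 genes the median log2 difference between 23 and 3 months was -0.039, with 20 higher and 25 lower, and across all genes it was 0.00082. The median size of the difference, without its sign, was 0.12 for the 45 and 0.07 for all genes. Most of the 45 had a wider spread between rats of the same age than the median gene. A wider spread alone enlarges such sizes, so these 2 values are not read as a larger change with age. In none of the 45 did the range of the 13 old rats lie apart from that of the 9 young rats, as it did in 32 of all genes (0.395%).

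**Figure D1:**
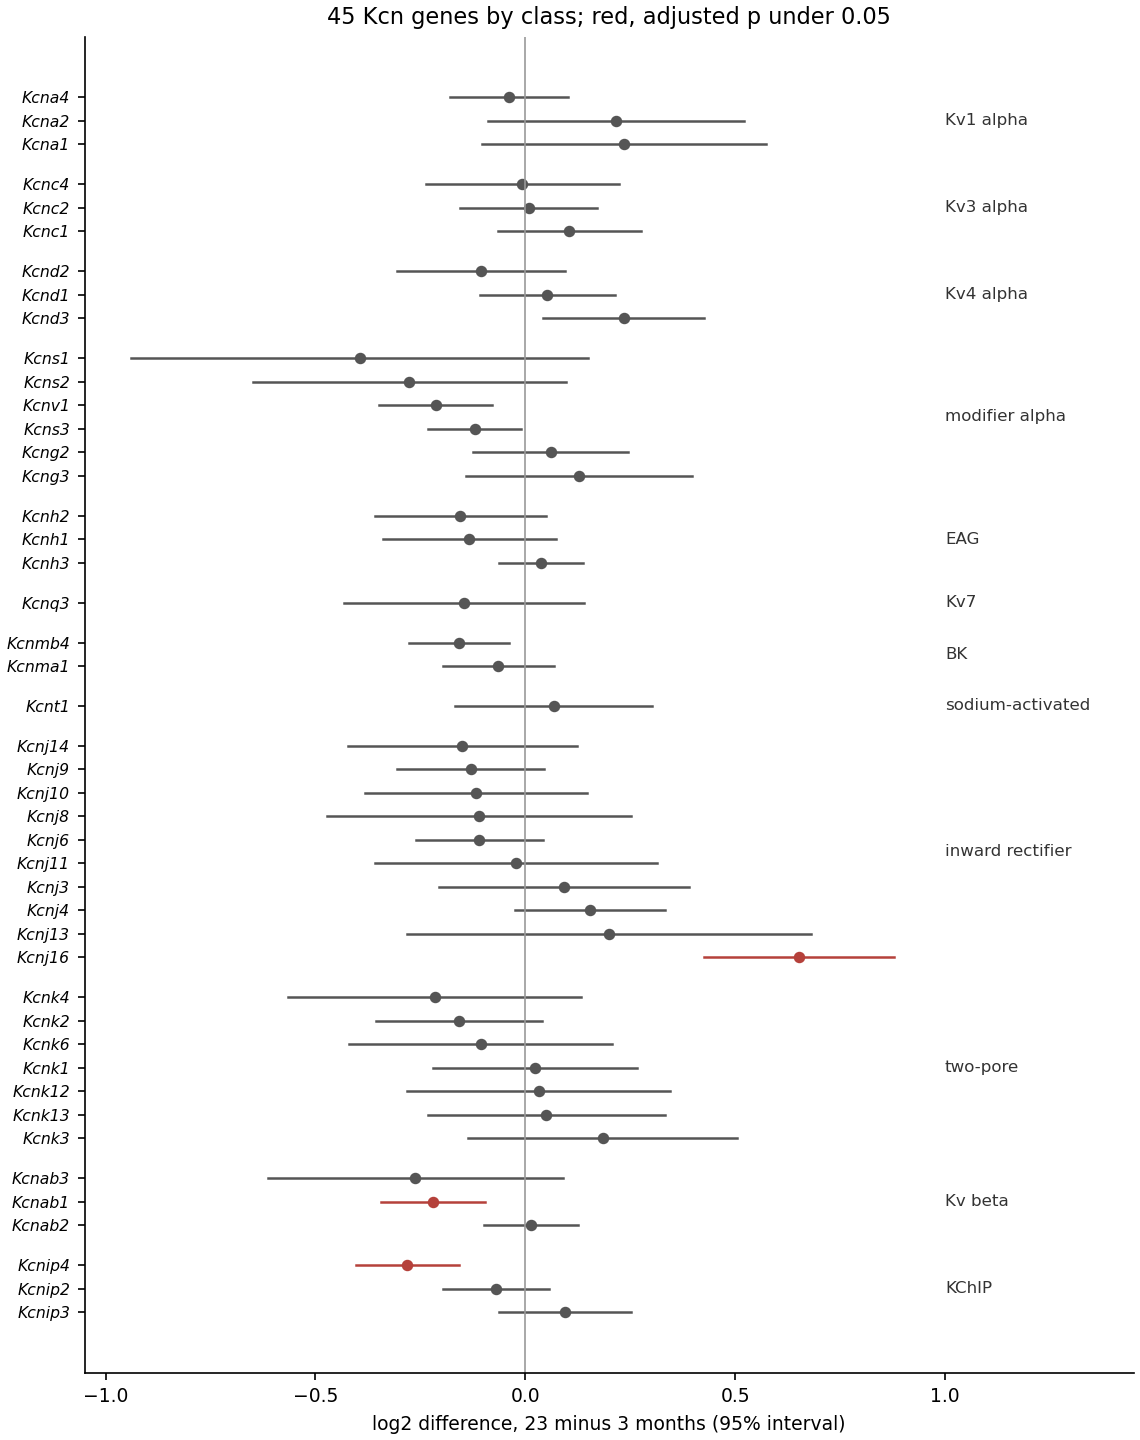
Log2 difference in signal between 23 and 3 months for the 45 tested Kcn genes (points) with the 95% interval of the limma fit (lines), grouped by class. Red marks the 3 genes with an adjusted p under 0.05, Kcnj16 to the right of 0 and Kcnip4 and Kcnab1 to the left, and most other intervals cross 0.

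Among the inward rectifiers, 10 of 15 were tested and 1 was called. Kcnj16 encodes a subunit that pairs with the product of Kcnj10 in the potassium channels of astrocytes. Its signal at 3 months ran from 133 through a median of 188 to 259.9, and at 23 months from 158 through 304 to 381. The old rats were the higher group, with 10 of 13 above the highest young rat and 12 of 13 above the young mean, and the ranges overlapped through 3 old rats at 158, 233 and 253. The middle ages lay between, with medians of 246, 247 and 244 at 6, 9 and 12 months. The group means were 187 ± 41.7 (SD, n = 9), 249 ± 37.6 (n = 9), 235 ± 38.3 (n = 9), 253 ± 28.8 (n = 9) and 294 ± 57.2 (n = 13) from the youngest age to the oldest.

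The rise of Kcnj16 from 3 to 23 months was 0.65 on the log2 scale (SE 0.113), or 1.57-fold, with an adjusted p of 6.48e-05 in limma, and it ranked 52 by p among all genes tested. Along the fitted line the change from 3 to 23 months was 0.51 (adjusted p = 0.00088), and the F-test over ages gave an adjusted p of 0.00217. Differences from 3 months were already 0.43 at 6 months, 0.35 at 9 and 0.46 at 12, none of which passed the adjusted threshold in limma (adjusted p = 1, 1 and 0.0929). At 6 months its unadjusted p of 0.000989 was the 4th smallest of all genes. Without the 5 arrays of high Ttr the difference between 23 and 3 months was 0.70 (adjusted p = 0.000557), and those of 6, 9 and 12 against 3 months were 0.48, 0.40 and 0.51, again not called (adjusted p = 0.912, 0.997 and 0.132).

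The other Kcnj16 probe set was dimmer, with a mean of 100.2 ± 47.2 (SD, n = 9) at 3 months and 134 ± 42 (n = 13) at 23 months. Its difference of 0.54 had the same sign but was not called (adjusted p = 0.231 in limma over 9541 probe sets). When the probe sets of each gene were averaged, Kcnj16 was still called between 23 and 3 months (0.60, adjusted p = 0.00696) but neither over the 5 ages (adjusted p = 0.091) nor along the line (0.0697).

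Kcnj10, the partner of Kcnj16 in astrocytes, was not called higher. It reached a signal of 100 on 28 of 49 arrays, ran from 83.8 through 104 to 144 at 3 months and from 78.4 through 94.5 to 120.4 at 23 months, and its difference of -0.12 was not called (adjusted p = 0.764 in limma, 95% interval -0.381 to 0.148). Astrocyte markers moved in part: 5 of 14 were called higher at 23 months (Gfap, Slc1a3, S100b, Mlc1 and Vim), and the summed signal of the 14 ran from 51722 to 61518 at 3 months and from 54796 to 69015 at 23 months. The part of astrocyte RNA in the Kcnj16 difference was not tested.

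The other inward rectifiers were not called. Kcnj3, Kcnj6 and Kcnj9 encode the subunits of G protein-gated channels, which carry slow inhibition in CA1 dendrites. Their differences between 23 and 3 months were 0.09, -0.11 and -0.13, with adjusted p of 0.85, 0.549 and 0.534 in limma. Kcnj6 was at 1003 ± 77.4 (SD, n = 9) in young and 937 ± 139 (n = 13) in old rats, and 5 of the 13 old rats were below the lowest young rat. With its probe sets averaged, the difference of Kcnj6 had the opposite sign (0.08, adjusted p = 0.767 in limma). Kcnj11, the pore of the ATP-sensitive channel, ran from 199.8 to 462 at 3 months and from 226 to 488 at 23 months, with a difference of -0.02 (adjusted p = 0.981). Without the 5 arrays of high Ttr it was 0.33 (adjusted p = 0.533), a change of sign in a value that was called neither time.

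**Figure D2:**
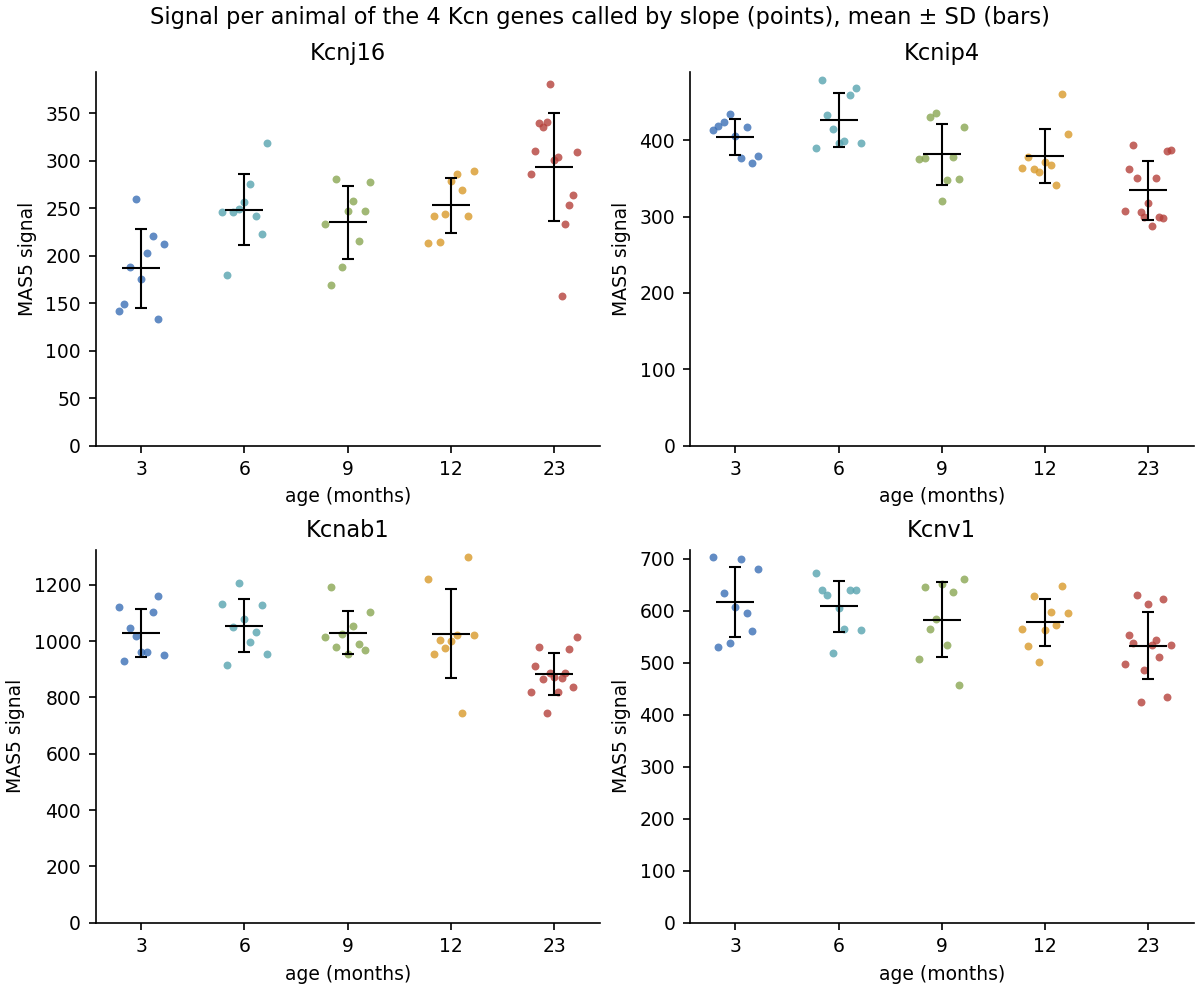
MAS5 signal of Kcnj16, Kcnip4, Kcnab1 and Kcnv1 in each of the 49 rats (points) by age in months, with the mean and SD of each age (bars). Kcnj16 rises from a mean of 187 at 3 months to 294 at 23 months, and Kcnip4 (405 to 335), Kcnab1 (1028 to 883) and Kcnv1 (617 to 533) are lowest at 23 months.

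In the Kv4 complex the KChIP partner Kcnip4 fell while the pore-forming subunits were not called. KChIP proteins bind Kv4 subunits, bring them to the membrane and tune how fast they inactivate. Kcnip4 ran from 370.1 through 413 to 435 at 3 months, and from 288 through 318 to 394 at 23 months. All 13 old rats were below the young mean and 10 of 13 were below the lowest young rat, though the ranges overlapped between 370.1 and 394. By age the means were 405 ± 23.3 (SD, n = 9), 427 ± 34.8 (n = 9), 382 ± 39.6 (n = 9), 379 ± 35.3 (n = 9) and 335 ± 38.8 (n = 13).

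Kcnip4 fell by 0.28 on the log2 scale between 3 and 23 months (SE 0.061), or 1.21-fold, with an adjusted p of 0.00214 in limma. Along the line it fell by 0.32 (adjusted p = 3.03e-05), the smallest p of any Kcn gene by slope, and the F-test gave 0.000615. Neither 12 against 3 months (-0.10, adjusted p = 0.771) nor 23 against 12 months (-0.19, adjusted p = 0.297) was called in limma. Without the 5 arrays of high Ttr the difference of 23 against 3 months was -0.26 and no longer called (adjusted p = 0.0624), while the slope was (-0.33, adjusted p = 0.000227).

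Kcnip2 gave different results from its probe sets. The brightest probe set ran from 1146 through 1430.3 to 1590.1 at 3 months and from 1021 through 1327 to 1548 at 23 months, and 1 old rat was below the lowest young one. Its difference of -0.07 was not called (adjusted p = 0.674 in limma). A dimmer probe set of the same gene ran from 265 through 313 to 346 at 3 months and from 197 through 241 to 363 at 23 months, with 9 of 13 old rats below the lowest young rat.

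That dimmer probe set fell by 0.32 between 3 and 23 months (SE 0.0848, adjusted p = 0.0183 in limma over 9541 probe sets) and by 0.35 along the line (adjusted p = 0.00115), with an F-test at 0.0314. Its means were 312, 319, 298, 271 and 252 from the youngest age to the oldest. Which transcripts each probe set reads is not given in the sources used here. Without the 5 arrays of high Ttr the dimmer probe set differed by -0.33 between 23 and 3 months and was no longer called (adjusted p = 0.0957), nor was its F-test (0.104), while its slope was (-0.35, adjusted p = 0.00534). With the probe sets of each gene averaged, Kcnip2 was called by slope (adjusted p = 0.0219).

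**Figure D3:**
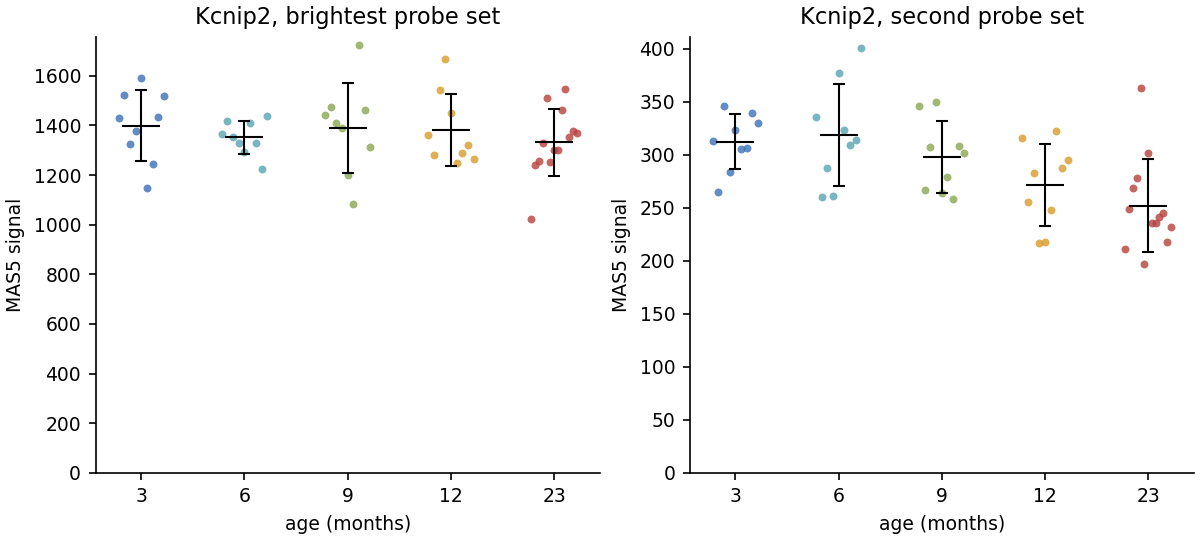
MAS5 signal of both tested Kcnip2 probe sets in each rat (points) by age in months, with mean and SD (bars). The brightest probe set stays between means of 1333 and 1399 at every age, and the other declines from a mean of 312 at 3 months to 252 at 23 months.

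The third tested KChIP, Kcnip3, a calcium sensor also known as a transcriptional repressor, was not called (0.09, adjusted p = 0.644 in limma). Kcnip1 stayed under the signal limit on all arrays. The Kv4 alpha subunits Kcnd1, Kcnd2 and Kcnd3 were all tested and none was called. Kcnd2, the main A-type subunit of CA1 dendrites, ran from 1276 through 1480.0 to 1965 at 3 months and from 1020.1 through 1424 to 1908 at 23 months, and 5 of 13 old rats were below the lowest young rat. Its difference was -0.11 (95% interval -0.305 to 0.0949, adjusted p = 0.701).

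Kcnd3, the Kv4 subunit also known from interneurons, had a difference of the opposite sign. It ran from 215 through 258 to 359.7 at 3 months and from 224 through 329.6 to 405 at 23 months, with 11 of 13 old rats above the young mean and 2 above the highest young rat. Neither the difference of 0.24 (adjusted p = 0.198 in limma) nor the slope (0.24, adjusted p = 0.0826) passed. Down-weighting arrays of large residual spread brought the slope to an adjusted p of 0.0485.

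Kcnab1 was the gene called in the Kv1 complex. Kv beta subunits bind Kv1 alpha subunits in the cytoplasm, and the product of Kcnab1 gives some of these channels fast inactivation. Its signal ran from 929.5 through 1019 to 1158 at 3 months and from 743 through 872 to 1015 at 23 months. All 13 old rats were below the young mean and 10 of 13 below the lowest young rat, and the ranges overlapped between 929.5 and 1015. The means stayed level over the earlier ages, at 1028 ± 83.7, 1055 ± 92.8, 1030.2 ± 75.7 and 1026 ± 158 (SD, n = 9 each) for 3, 6, 9 and 12 months, and were 883 ± 73.8 (n = 13) at 23 months.

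Kcnab1 fell by 0.22 between 3 and 23 months (SE 0.0618), or 1.17-fold, with an adjusted p of 0.0297 in limma. By slope it fell by 0.26 (adjusted p = 0.00127), and the F-test gave 0.0245. The 12-month group was the widest, from 743 to 1297, and 23 against 12 months (-0.21) was not called with it (adjusted p = 0.211) but was without replicate 2 of 12 months (0.0162). The call of 23 against 3 months was lost without the 5 arrays of high Ttr (-0.26, adjusted p = 0.0631), and also without any 1 of 4 rats (replicates 1, 2 and 6 of 3 months and replicate 5 of 23 months, adjusted p up to 0.0724). The F-test call ended as well without those 5 arrays (adjusted p = 0.0559), and the slope stayed called (-0.28, adjusted p = 0.00143).

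The other Kv beta subunits and the Kv1 alpha subunits were not called. Kcnab2, the beta subunit of most neuronal Kv1 channels, was at 3055 ± 286 (SD, n = 9) in young and 3079 ± 231 (n = 13) in old rats, a difference of 0.01 (95% interval -0.0988 to 0.125, adjusted p = 0.959 in limma). Kcnab3 reached the limit on 26 arrays and had a difference of -0.26 with a wide interval (-0.613 to 0.0896). Kcna1, an axonal Kv1 subunit, ran from 265 through 358 to 508 at 3 months and from 267 through 491 to 599 at 23 months, and its difference of 0.24 was not called (adjusted p = 0.57). Kcna2 had a difference of 0.22 and Kcna4, which itself inactivates fast, of -0.04 (adjusted p = 0.561 and 0.866), while Kcna3, Kcna5 and Kcna6 stayed under the limit.

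Among the silent subunits, which conduct only in tetramers with other Kv subunits, 6 of 7 were tested. Kcnv1 ran from 531 through 608 to 704 at 3 months and from 425 through 535 to 630.1 at 23 months, with 11 of 13 old rats below the young mean and 5 below the lowest young rat. Its means stepped down with age, from 617 ± 67.1 (SD, n = 9) through 609 ± 49.2, 583 ± 72.1 and 578 ± 45.6 (n = 9 each) to 533 ± 64.3 (n = 13). By slope Kcnv1 fell by 0.22 (adjusted p = 0.015 in limma), or 1.16-fold over the 20 months. Neither the difference of 23 against 3 months (-0.21, adjusted p = 0.0646) nor the F-test (0.318) reached the threshold. With the 5 arrays of high Ttr left out, the slope was -0.23 (adjusted p = 0.0281) and the difference of 23 against 3 months -0.25 (adjusted p = 0.11).

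Kcns3, another silent subunit, was at 445 ± 45.7 (SD, n = 9) in young and 409 ± 35.2 (n = 13) in old rats, with 12 of 13 old rats below the young mean, and was not called (-0.12, adjusted p = 0.273 in limma). Kcns1 and Kcns2 were lower by 0.40 and 0.28 in old rats, sizes near or above that of Kcnip4, but neither was called (adjusted p = 0.55 and 0.537). The spread between rats of the same age was wide for both, with an SD of 0.651 and 0.448 on the log2 scale, against 0.144 for Kcnab1 and 0.135 for Kcnip4.

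The calcium-activated channels gave no call. Kcnma1, the BK pore, was at 548 ± 48.4 (SD, n = 9) in young and 525 ± 45.5 (n = 13) in old rats, a difference of -0.06 (95% interval -0.197 to 0.0694, adjusted p = 0.732 in limma). Kcnmb4, the neuronal BK beta subunit that slows the channel, ran from 1001 through 1125 to 1367 at 3 months and from 881 through 1024 to 1235 at 23 months, with 11 of 13 old rats below the young mean and 6 below the lowest young rat. Its difference of -0.16 was not called (adjusted p = 0.147). The SK genes Kcnn1 and Kcnn3 reached a signal of 100 on 3 and 1 of 49 arrays and were not tested, and Kcnn2 was not analysed here. Kcnt1, the sodium-activated channel, had a difference of 0.07 (adjusted p = 0.861).

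The M-current gene Kcnq3 was at 211 ± 33.1 (SD, n = 9) in young and 195 ± 50.8 (n = 13) in old rats and was not called (-0.15, adjusted p = 0.71 in limma). With its probe sets averaged, the difference of Kcnq3 had the opposite sign (0.02, adjusted p = 0.978 in limma). In the EAG class, 3 of 8 genes were tested, and Kcnh1 (-0.13, adjusted p = 0.601), Kcnh2 (-0.16, adjusted p = 0.522) and Kcnh3 (0.04, adjusted p = 0.814) were not called. Kcnh3 had the smallest spread between rats of the same age among the 45 genes (SD 0.111), and the 95% interval of its difference was -0.0635 to 0.138.

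All 3 Kv3 subunits, which allow fast repolarisation in interneurons, were tested and none was called. Kcnc1 was at 807 ± 110.3 (SD, n = 9) at 3 months, 965 ± 165 (n = 9) at 6 months and 870.0 ± 125 (n = 13) at 23 months. Its differences from 3 months were 0.25 at 6 months (adjusted p = 1 in limma, unadjusted p = 0.00882) and 0.10 at 23 months (adjusted p = 0.628). Kcnb2, a delayed rectifier subunit, stayed under the limit.

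Of 11 tandem-pore genes 7 were tested and none was called. Kcnk2, a leak channel opened by stretch and lipids, was at 257 ± 34 (SD, n = 9) in young and 232 ± 39.5 (n = 13) in old rats, with a difference of -0.16 (adjusted p = 0.501 in limma), and Kcnk1 had one of 0.02 (adjusted p = 0.971). A dim probe set of Kcnk3 had means of 49.6 ± 30 (n = 9) and 90.8 ± 29.1 (n = 13), a difference of 0.95 on the log2 scale that was not called (adjusted p = 0.0749 over 9541 probe sets). The brightest probe set of Kcnk3 had means of 92.2 ± 22.7 (n = 9) and 104 ± 22.9 (n = 13), a difference of 0.18 (adjusted p = 0.66).

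Among old rats no relation between the genes that changed passed a test. Over the 13 rats of 23 months, the 6 pairs among Kcnj16, Kcnip4, Kcnab1 and Kcnv1 had Pearson r between -0.25 and 0.33 and Spearman rho between -0.34 and 0.29. The smallest permutation p was 0.264, and after Benjamini-Hochberg adjustment over the 6 pairs all p of r were 0.698. Kcnab1 with Kcnip4 had the highest r (0.33, adjusted permutation p = 0.698) and still had 0.36 without the 2 rats farthest from the median.

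The genes around the channels were described from lists of related genes. Of 24 partners of potassium channels (scaffolds, auxiliary subunits, anchors and the related Hcn channels), 17 were tested and none was called at 23 against 3 months, over the 5 ages or by slope. Dpp6, a Kv4 auxiliary subunit that works beside the KChIPs, had a difference of -0.09 (adjusted p = 0.356 in limma), and Dlg2, a scaffold that clusters Kv1 channels, of -0.13 (adjusted p = 0.671). The median difference of the 17 tested partners was -0.0094. Of 14 pumps and cotransporters, 9 were tested: Fxyd1, a regulator of the sodium pump, rose by 0.44 (adjusted p = 3.98e-05) and Slc12a2, a chloride importer that also carries potassium, rose by slope (0.21, adjusted p = 0.0204). Of 10 sodium channel subunits, 8 were tested and Scn2b, a beta subunit, fell by slope (-0.31, adjusted p = 0.0461).

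Some markers of neurons were called lower, as were Kcnip4, Kcnab1 and Kcnv1. Of all genes, 0.853% were called lower at 23 against 3 months and 1.64% by slope. The median log2 difference between 23 and 3 months was -0.12 for the CA1 pyramidal markers. It was -0.019 for markers of neurons in general and -0.055 for interneuron markers. Of 8 CA1 pyramidal markers 1 was called lower at 23 months (Pou3f1), and a second (Dkk3) by slope, with a summed signal of 17798 to 22889 at 3 months and 15766 to 21292 at 23 months. Of 13 markers of neurons in general 1 was called lower (Stmn2), with a sum of 46580 to 51229 at 3 months and 45040 to 50190 at 23 months. None of the 11 interneuron markers was called. Microglial markers were higher in old rats (14 of 16 called, summed signal 8541 to 9868 at 3 months and 11296 to 20567 at 23 months). The part of these shifts in the Kcn results was not tested.

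Rats of the same age differed in 3 Kcn genes along with markers of the hippocampal fields. Each gene's deviation from the mean of its age was set against the mean deviation of 8 CA1 pyramidal markers and, separately, of 5 dentate granule markers, over 49 rats. The same was done for the other genes tested (8080 genes without the markers themselves), and p-values from permutations within ages were adjusted by Benjamini-Hochberg over all of them and both lists. Against the CA1 list 3 of 45 Kcn genes passed by both r and rho, all negative (Kcnc4, Kcnk1 and Kcnj4), beside 1.91% of all genes that passed with a negative sign and 1.94% with a positive one. The same 3 passed against the dentate list, all positive, beside 2.64% of all genes with a positive sign and 1.73% with a negative one. Both lists were read on the same arrays and their relation to each other was not tested. The results against the 2 lists are therefore not separate results.

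Kcnc4, a Kv3 subunit with fast inactivation, had the largest r of the 45, with r of -0.80 and rho of -0.80 against the CA1 list (adjusted permutation p = 0.00114 and 0.00131). Within ages its r lay between -0.87 and -0.71, and without the 2 rats farthest from the median it was -0.76. Against the dentate list its r was 0.65 and rho 0.66 (adjusted permutation p = 0.00114 and 0.00131). Kcnk1 had r of -0.65 and rho of -0.67 against the CA1 list (adjusted permutation p = 0.00114 and 0.00131), with r between -0.81 and -0.42 within ages and -0.65 without the 2 farthest rats. Kcnj4 had r of -0.52 and rho of -0.51 (adjusted permutation p = 0.013 and 0.0171), with r between -0.73 and -0.36 within ages and -0.48 without those rats.

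Kcnab1 had r of 0.53 and rho of 0.43 with the CA1 list and passed by r but not by rho (adjusted permutation p = 0.00797 and 0.0681), as did Kcnip3 with r of -0.50 and rho of -0.43 (0.0207 and 0.07). The r of Kcnab1 lay between 0.2 and 0.88 within ages and was 0.49 without the 2 farthest rats. Kcnj16 (r of -0.28, adjusted permutation p = 0.289), Kcnip4 (r of 0.05, adjusted permutation p = 0.899) and Kcnv1 (r of 0.11, adjusted permutation p = 0.724) did not pass against the CA1 list. These values share the array on which gene and markers were read, and the cause was not tested.

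**Figure D4:**
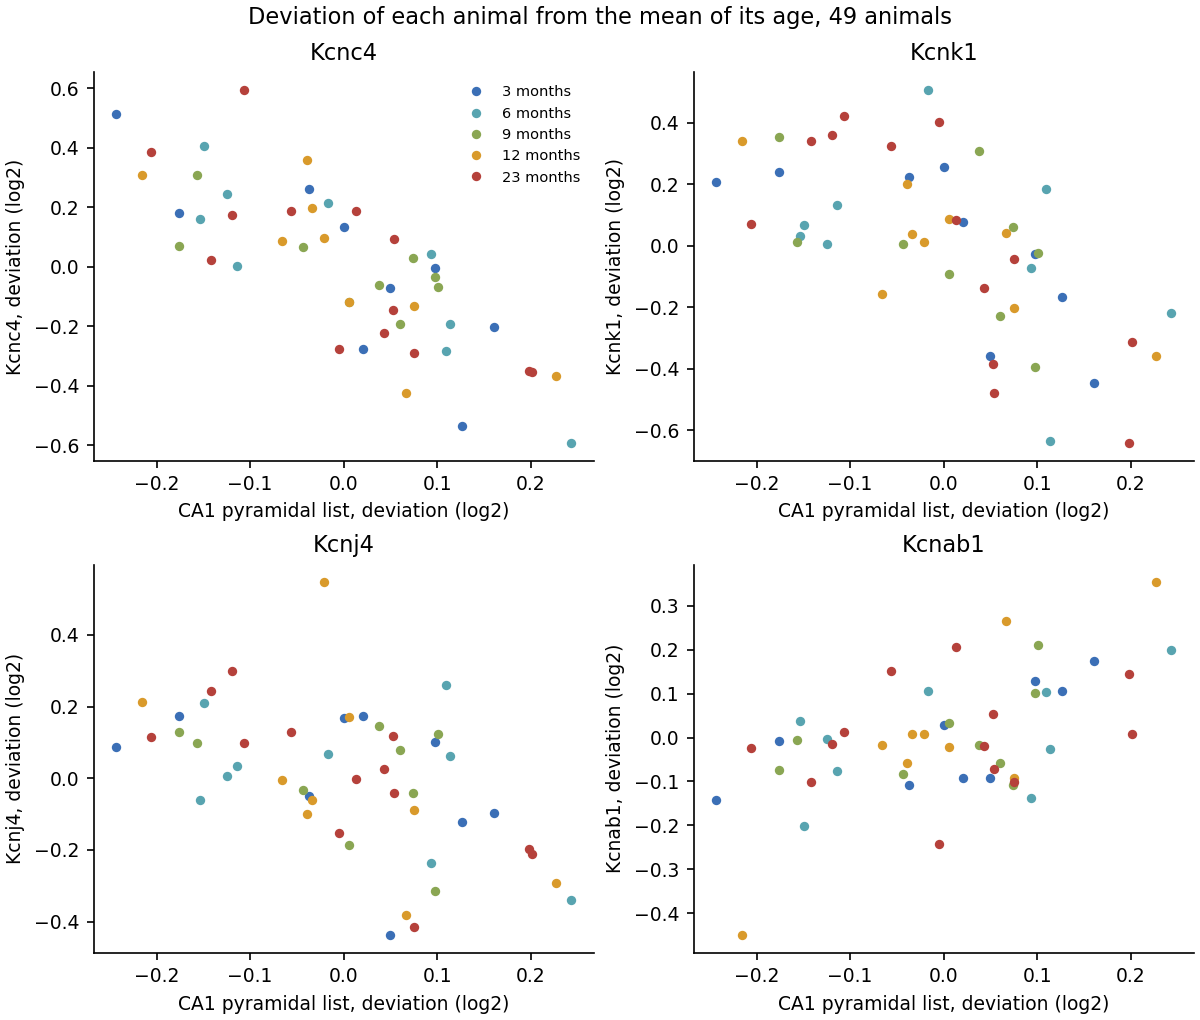
Deviation of Kcnc4, Kcnk1, Kcnj4 and Kcnab1 from the mean of their age (y axis, log2) against the mean deviation of 8 CA1 pyramidal markers (x axis, log2), 1 point per rat, coloured by age. Kcnc4 (r of -0.80), Kcnk1 (-0.65) and Kcnj4 (-0.52) run downward and Kcnab1 (0.53) upward.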

How the data were processed

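RNA of the CA1 region was hybridised to Affymetrix RAE 230A arrays, 1 per rat, per the series' design text. The deposited values are intensities, which the authors computed with MAS5 (per the submitters' processing notes; version not given in the sources used here) and scaled to a target of 500 over all probe sets, per the design text. Each array's mean, trimmed by 2% at each end, was 500.1. The design text also calls the oldest group 25 months old; the labels' 23 months was used. Rats are separate animals, so p-values measure the spread between rats, and the number of arrays limits the precision. No per-sample column was left unused (0).

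The table held 15923 probe sets, 57 of them controls. A single symbol was given for 12783, several for 312 and none for 2771. Symbols were updated by Entrez ID (12748 of 12783 matched, RefSeq, GRCr8), which renamed no Kcn gene. Genes were tested where the chosen probe set reached 100 on 5 arrays. Signals under 16 were set to 16 (0.0467% of tested values), and fold changes are on the log2 scale of these values. limma 3.58.1 in R 4.3.3 (lmFit, eBayes with a variance trend) fitted all 49 arrays with a mean per age, or a line in months for the slope, with Benjamini-Hochberg adjustment over 8093 genes. A second fit used 9541 probe sets. Scripts were tested on simulated data. There, at 23 against 3 months, 17 of 50 changes of 0.2 on the log2 scale were recovered. For changes of 0.3 it was 28 of 50, and for changes of 0.5 it was 47 of 50. A gene that was not called can thus still differ by these sizes, and a gene of wide spread by more. Most of the tested Kcn genes had a wider spread between rats of the same age than the median gene. These recovery rates are therefore not read as limits for uncalled Kcn genes. At 23 against 3 months the interval of the limma fit ran from -0.939 to 0.149 for Kcns1 and from -0.281 to 0.681 for Kcnj13. Permutation tests (two-sided, 100000 resamples) used numpy 2.4.6. Comparisons with 3 months share those control rats, and those at 23 months share the old rats.

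Genes were named by rule: those called in any test, the smallest p of each class at 23 against 3 months and by slope, and a list of genes with a known part in CA1 cells or glia. Kcnab3, Kcns1, Kcns2, Kcns3, Kcnj4, Kcnh3, Kcnk3, Kcnj13 and genes at or under the signal limit were named after their values were seen. The members and all gene and marker lists were chosen with earlier results of these data known. The 5 arrays of high Ttr and the relation to the marker lists were chosen after seeing the data. Alternatives covered scaling, floor, filter, probe set choice, weights, blocks and each rat left out. Presence calls, scan dates and behaviour scores are not used here.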

Additional observations from a re-analysis of the deposited data

Results flagged for a closer look

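Dixon's test was applied to signals without the log2 step in 108 groups of 9 rats (27 Kcn genes at 4 ages). In 8 groups the highest rat stood away from the others by more than the test's 95% limit. Chance gives about 5% for normally distributed values, and the share over all genes was not computed. Kcnc1 had 2 such groups, with replicate 2 of 3 months at 1063 (next 874) and replicate 2 of 6 months at 1354 (next 1035). Kcnt1 also had 2, with replicate 2 of 6 months at 193 (next 152) and replicate 1 of 12 months at 225 (next 165). Kcnd2 was at 2098 in replicate 1 of 6 months (next 1489), and Kcnd3 at 388 in replicate 9 of 6 months (next 295). Kcnma1 was at 684 in replicate 4 of 12 months (next 541), and Kcnc4 at 629.9 in replicate 6 of 9 months (next 534). All 8 are high values, and none belongs to Kcnj16, Kcnip4, Kcnab1 or Kcnv1.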

How the results depend on the processing

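Counts of called Kcn genes were recomputed under 14 or 15 other settings and with each of the 49 rats left out in turn. Without the 5 arrays of high Ttr, chosen after seeing the data, 1 Kcn gene (Kcnj16) was called between 23 and 3 months, where 173 genes were called in all. That setting also has fewer rats, most of all at 3 months. With array weights 1 (Kcnj16) was called between 12 and 3 months. For the array weights, the replicate blocks and the single-rat fits no count over all genes is given, so their Kcn counts have no background here. The methods' analysis of variance gave 6 Kcn genes at its unadjusted threshold (757 genes in all) and 3 after Benjamini-Hochberg adjustment (149 in all). The slope without the rats of 23 months called 0 Kcn genes (29 in all, limma). With 1 rat left out the counts ran from 2 to 3 over the 5 ages, 2 to 4 at 23 against 3 months, 0 to 1 at 12 against 3 and at 23 against 12 months, 0 to 0 at 9 and at 6 against 3 months and 4 to 5 by slope. No called value changed sign in any setting. With 1 rat left out, the calls of Kcnip4 and Kcnj16 at 23 against 3 months held in all 49 fits, the F-test of Kcnab1 was lost in 4 (adjusted p up to 0.0818) and Kcnv1 was called at 23 against 3 months in 5 (adjusted p down to 0.034). Whether replicate numbers pair the rats was not settled. Deviations of same-numbered rats correlated with r from -0.13 to 0.36 over 86 pairs (median 0.055), 33 of them over 0.1. The random block term had a correlation of 0.07, and no r of differently numbered rats was set beside these values. With the replicate block as a random term 4 Kcn genes were called at 23 against 3 months in limma, with Kcnv1 (adjusted p = 0.045). As a fixed term it gave 2, without Kcnab1 (adjusted p = 0.125). The fixed-term fits kept only rats whose replicate numbers were shared by the ages compared, and for 23 against 3 months only those 2 ages. In those fits the block cannot be told apart from the smaller number of rats. The block left the counts over the 5 ages (3) and by slope (4) as they were.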
